A study of Mus musculus with 6 samples.

Results

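Glycosaminoglycans are long, unbranched sugar chains that osteoblasts attach to proteoglycan core proteins and place in the matrix and on the cell surface. The genes described here are 41 enzymes and transporters that make the linker to the core protein, build and sulfate heparan sulfate and chondroitin or dermatan sulfate, load the sulfate donor, or make hyaluronan. They were listed by these roles, with earlier results of these data known. The arrays measured 39 of the 41, out of 18193 genes with a probe set named for them alone, while Xylt1 and Ndst1 had none and were not analysed here. The cells were MC3T3-E1 subclone 4, a mouse calvarial pre-osteoblast line, so that all samples came from 1 clonal line. The AA-treated group held 3 cultures kept with ascorbic acid (AA) over 5 days. The dose was 50 µg per ml in the study's methods and 50 µg with no volume in the labels. The control group held 3 untreated cultures of the same 5 days. Cells grew in 6-well plates, and the study speaks both of growth in triplicate and of triplicate experiments. The replicates may therefore be wells or separate experiments. Except where no replicate block is named, the p-values by limma rest on the spread of AA-minus-control differences between same-numbered samples. That spread is moderated by the spread of other probe sets of like signal, and it may be technical. The comparison asks which genes of this pathway differ in RNA level when osteoblasts (OBs) are stimulated to differentiate by AA.

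Both sulfated chains are started on the same linker, in which a xylose on a serine of the core protein is followed by galactose, galactose and glucuronic acid. From there, the exostosin enzymes extend heparan sulfate and the chondroitin synthases extend chondroitin sulfate, and further enzymes sulfate and epimerize the sugars. All of these sulfotransferases take sulfate from PAPS, which PAPS synthases make in the cytosol and a transporter carries into the Golgi. Hyaluronan differs from both in that it carries no sulfate and no core protein and is made at the plasma membrane. In cartilage and bone, sulfated chains hold water and bind growth factors, and people or mice that lack enzymes or transporters of this route have skeletal disorders.

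Each RNA was read on its own Affymetrix Mouse Genome 430 2.0 array, and the values are signals scaled to a mean of 150 per array, so they give no read depth and the number of arrays limits the precision. Median signals were 16.2 to 16.9 in AA-treated cells and 14.9 to 17.7 in control cells. The 3′ to 5′ ratio of the Gapdh control probes, a sign of RNA quality, was 0.791 to 0.799 on the AA arrays and 0.807 to 0.92 on the control arrays, with control replicate 3 the highest. The same ratio of the actin control probes was 1.79 on control replicate 3 and 1.35 to 1.45 on the other arrays. Osteoblast markers summed to 31040 to 40994 in AA-treated cells and 24408 to 29295 in control cells, with 4 of the 9 measured markers up-regulated, Alpl and Ibsp among them, and none down-regulated. Chondrocyte markers also summed higher, at 701 to 796 in AA-treated cells against 392 to 487 in control cells, with 2 of 10 up-regulated (Hapln1 and Col2a1). Of all genes, 4.07% were up-regulated and 3.85% down-regulated by the test given below, and of those above the median signal 6.68% and 6.32%. The chondrocyte marker Sox9 was lower, at 172, 170 and 163 in AA-treated cells and 179, 210 and 272 in control cells (adjusted p = 0.283 by limma). The defining cartilage proteoglycan Acan was near the floor in both, with 8.61, 9.08 and 9.51 in AA-treated cells and 5.54, 7.65 and 1.22 in control cells. The part that the chondrocyte markers or the RNA quality ratios play in the results below was not tested. In bulk RNA, fewer cells of a type and less RNA per cell cannot be told apart.

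Signals are printed as deposited, while log2 fold changes, AA over control, come from signals quantile-normalized between the arrays. A gene was said to pass when its brightest probe set had an adjusted p under 0.05, by limma with Benjamini-Hochberg adjustment over all 45037 probe sets. Of the 39 measured members, 4 were up-regulated in AA-treated cells (B3gat3, Chpf2, Chst11 and Papss2), 7 were down-regulated (Glce, Hs2st1, Hs6st1, Hs6st2, Sulf2, Csgalnact1 and Slc26a2) and 28 did not pass. Among all genes tested, 4.07% passed as higher and 3.85% as lower, or 7.92% in either direction. As many as 33 members were above the median signal, and among genes above it the shares were 6.68% higher and 6.32% lower, or 13% in all. All 11 members that passed were among those 33. The counts by role below are read against the same shares over all genes. The members' median log2 fold change was 0.01, against -0.02 over all genes. AA and control signals did not overlap for 19 members, all above the median signal, whereas 27.9% of all genes and 39.7% of genes above the median signal did not overlap.

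**Figure D1:**
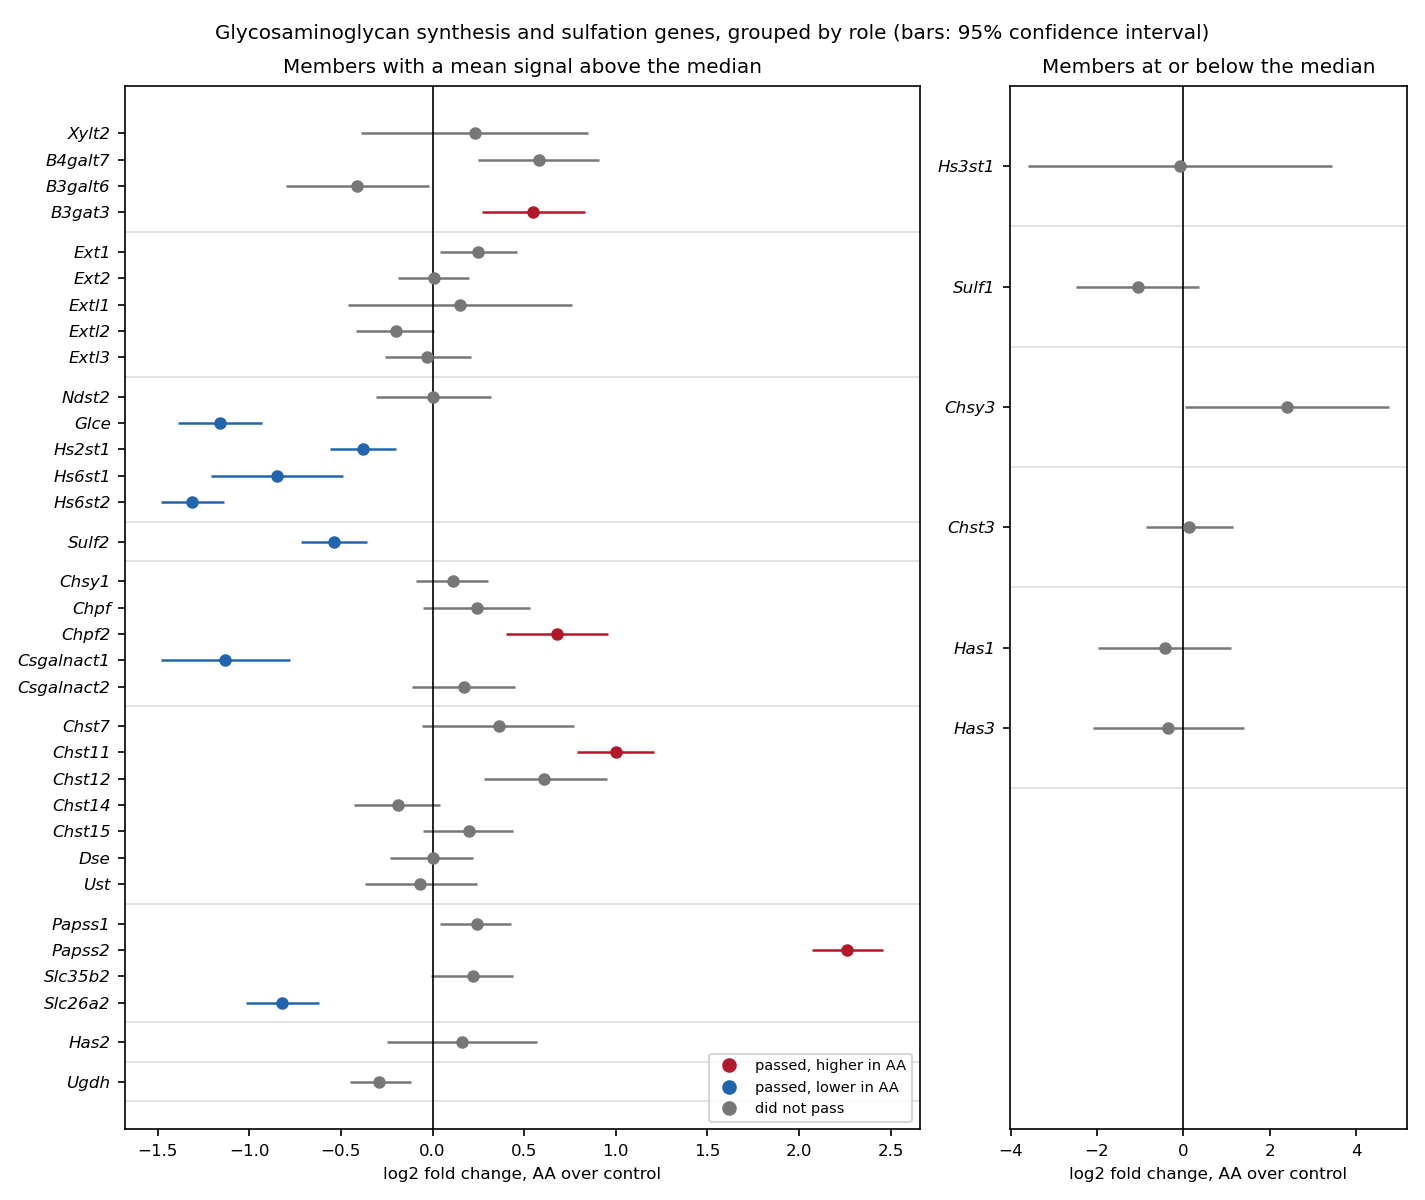
Log2 fold change, AA over control, of the brightest probe set of each of the 39 measured members in order of role, with the 33 above the median signal on the left and the other 6 on the right on a wider scale. Points are limma estimates and bars their 95% intervals; the 4 members that passed as higher range up to Papss2 at 2.26, and the 7 that passed as lower reach down to Hs6st2 at -1.31.

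The largest difference among the members that passed lay in the supply of activated sulfate. Papss2, 1 of the 2 PAPS synthases, had signals of 1426, 1290 and 1246 in AA-treated cells, against 285, 300 and 248 in control cells. Every AA culture was far above every control culture, with means of 1321 ± 94.1 and 278 ± 27.0 (SD, n = 3 each). The log2 fold change was 2.26 ± 0.08 (SE; 95% interval 2.07 to 2.46), or 4.79-fold, with an adjusted p of 3.32e-05 by limma. Of the 3 other probe sets of Papss2, 2 also passed, at 1.83 and 1.55 on the log2 scale (adjusted p = 0.0184 and 0.00628 by limma), and the dimmest gave 0.94 (adjusted p = 0.594). With all 4 averaged, the log2 fold change was 1.65 (adjusted p = 0.0103). Its paralog Papss1 had 2118, 2114 and 1907 in AA-treated cells against 1874, 1478 and 1689 in control cells. These groups did not overlap, but the log2 fold change of 0.24 (95% interval 0.04 to 0.43) did not pass, with an adjusted p of 0.181 by limma.

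Slc26a2, the plasma membrane sulfate transporter, moved the other way from Papss2. Its signals were 406, 459 and 452 in AA-treated cells, against 687, 911 and 780 in control cells, and all AA cultures were below all control cultures. The means were 439 ± 28.8 and 793 ± 112 (SD, n = 3 each), for a log2 fold change of -0.82 ± 0.09 (95% interval -1.02 to -0.62; adjusted p = 0.00188 by limma). A second probe set fell by 1.24 on the log2 scale (adjusted p = 0.000673 by limma), and the third fell by 1.16 without passing (adjusted p = 0.0854). Slc35b2, which carries PAPS into the Golgi, was at 0.22 on the log2 scale (adjusted p = 0.299 by limma), with 628, 566 and 541 in AA-treated cells and 511, 462 and 560 in control cells. The 4 genes of sulfate supply therefore split into 1 higher, 1 lower and 2 that did not pass.

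RefSeq gives 2 stretches of 250 bases before a transcription start of Papss2 (GRCm38.p6), and they are shown because this gene had the largest change among the members that passed. They lie at chr19:32595465-32595714 and chr19:32619755-32620004, both on the plus strand, and capitals mark matches on either strand to the GC box GGGCGG, the RUNX motif TGTGGT or the letters ACGTG.
Papss2 first start: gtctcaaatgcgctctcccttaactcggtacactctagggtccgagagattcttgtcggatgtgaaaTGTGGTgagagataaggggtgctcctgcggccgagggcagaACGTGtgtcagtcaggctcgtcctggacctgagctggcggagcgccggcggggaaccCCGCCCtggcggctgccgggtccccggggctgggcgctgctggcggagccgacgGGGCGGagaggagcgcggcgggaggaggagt
Papss2 second start: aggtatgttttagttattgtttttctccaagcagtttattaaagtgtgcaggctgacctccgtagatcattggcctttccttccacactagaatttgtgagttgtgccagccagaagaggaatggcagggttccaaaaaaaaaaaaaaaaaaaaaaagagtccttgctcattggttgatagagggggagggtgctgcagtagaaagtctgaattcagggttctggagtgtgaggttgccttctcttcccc
The first window held 2 GC boxes, 1 RUNX match and 1 ACGTG, with a GC content of 67.6%, and the second, with 43.2% GC, held none of the 3. The array does not tell which start was used.

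Enzymes that modify heparan sulfate held most of the down-regulated members. Of the 6 measured, 4 fell (Glce, Hs2st1, Hs6st1 and Hs6st2), none rose and 2 did not pass, with a median log2 fold change of -0.61. Of all genes, 3.85% passed as lower, and of those above the median signal 6.32%. Hs6st2, which adds sulfate to the 6-O position of glucosamine, had signals of 434, 667 and 773 in AA-treated cells, against 1156, 1627 and 1805 in control cells. Replicate 1 was the lowest culture in both groups, and the groups did not overlap. The means were 625 ± 174 and 1529 ± 335 (SD, n = 3 each), and the log2 fold change was -1.31 ± 0.08 (95% interval -1.48 to -1.14; adjusted p = 0.000206 by limma), a level 0.403 times that of the control. Its 3 dimmer probe sets gave log2 fold changes of -0.61, -1.11 and -1.79, none of which passed (adjusted p = 0.211, 0.158 and 0.296). With no replicate block, the adjusted p of Hs6st2 by limma was 0.0106 with all arrays and 0.0564 without control replicate 2.

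Hs6st1, the other 6-O-sulfotransferase that passed, was read by 1 probe set. It had 77.7, 84.9 and 83.3 in AA-treated cells, against 125, 137 and 198 in control cells, so the AA cultures lay close together and the control cultures spread upwards. The means were 82.0 ± 3.78 and 153 ± 39.5 (SD, n = 3 each), for a log2 fold change of -0.85 ± 0.16 (95% interval -1.21 to -0.49; adjusted p = 0.0199 by limma). Without replicate 3, whose control culture was the highest, the log2 fold change was smaller, at -0.64 (adjusted p = 0.0417 by limma). Without replicate 2 the adjusted p was 0.0535, at a log2 fold change of -0.95. With no replicate block the adjusted p lay between 0.0705 and 0.0953 when control replicate 2 or any 1 AA replicate was left out.

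Glce turns glucuronic acid of the heparan sulfate chain into iduronic acid. Its signals were 312, 295 and 324 in AA-treated cells, against 822, 682 and 631 in control cells, with no overlap. The means were 310 ± 14.9 and 712 ± 98.9 (SD, n = 3 each), for a log2 fold change of -1.16 ± 0.10 (95% interval -1.39 to -0.93; adjusted p = 0.000785 by limma). A second probe set also passed, at -1.23 (adjusted p = 0.041 by limma), and the third gave -1.0 (adjusted p = 0.173). Hs2st1, which sulfates the iduronic acid that Glce makes, showed a smaller fall. It had 591, 594 and 632 in AA-treated cells, against 824, 784 and 787 in control cells, with means of 606 ± 22.8 and 798 ± 22.0 (SD, n = 3 each). Its log2 fold change was -0.38 ± 0.08 (95% interval -0.56 to -0.20; adjusted p = 0.0292 by limma). The groups of Hs2st1 were well apart, but its 3 other probe sets gave -0.31, -0.01 and -0.69 and did not pass (adjusted p = 0.212, 0.984 and 0.357). Its adjusted p was 0.1 without replicate 1 and 0.17 without replicate 2, and with no replicate block 0.0602 without control replicate 2, 0.0588 without AA replicate 1 and 0.0963 without AA replicate 2.

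The other modifying enzymes gave no call. Ndst2, which replaces N-acetyl groups by N-sulfate, had 108, 121 and 106 in AA-treated cells and 101, 113 and 125 in control cells, with a 95% interval of its log2 fold change from -0.31 to 0.32. Hs3st1, a 3-O-sulfotransferase, lay at or below the median signal, with at most 4.92 in AA-treated cells and 7.28 in control cells.

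The extracellular sulfatases remove 6-O-sulfate from finished heparan sulfate chains. Sulf2 had 1797, 1752 and 1686 in AA-treated cells, against 2411, 2210 and 2747 in control cells, so the AA cultures were all below the control cultures. The means were 1745 ± 55.7 and 2456 ± 271 (SD, n = 3 each), for a log2 fold change of -0.54 ± 0.08 (95% interval -0.72 to -0.36; adjusted p = 0.00734 by limma). This brightest probe set is of the type whose probes can bind other transcripts as well, but a second one fell by 0.78 on the log2 scale (adjusted p = 0.00395 by limma) and the third by 0.14 without passing (adjusted p = 0.68). Sulf1 was at or below the median signal, at 1.95, 6.03 and 1.99 in AA-treated cells and 3.22, 10.2 and 5.83 in control cells, and did not pass (adjusted p = 0.434 by limma).

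For the 2 heparan sulfate enzymes with the largest falls, the 250 bases before each RefSeq start are given (GRCm38.p6), all on the minus strand, with the same motifs in capitals. Hs6st2 has starts with windows at chrX:51681603-51681852 and chrX:51680478-51680727, and Glce has 1 at chr9:62122610-62122859.
Hs6st2 first start: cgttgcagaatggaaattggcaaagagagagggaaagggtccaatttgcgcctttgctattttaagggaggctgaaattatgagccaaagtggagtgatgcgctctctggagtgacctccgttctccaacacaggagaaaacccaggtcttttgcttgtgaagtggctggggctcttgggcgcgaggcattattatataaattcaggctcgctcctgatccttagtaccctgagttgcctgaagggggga
Hs6st2 second start: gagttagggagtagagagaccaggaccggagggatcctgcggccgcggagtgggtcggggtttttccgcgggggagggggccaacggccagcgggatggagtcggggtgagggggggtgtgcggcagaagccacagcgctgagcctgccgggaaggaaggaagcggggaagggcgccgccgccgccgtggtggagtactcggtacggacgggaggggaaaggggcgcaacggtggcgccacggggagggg
Glce: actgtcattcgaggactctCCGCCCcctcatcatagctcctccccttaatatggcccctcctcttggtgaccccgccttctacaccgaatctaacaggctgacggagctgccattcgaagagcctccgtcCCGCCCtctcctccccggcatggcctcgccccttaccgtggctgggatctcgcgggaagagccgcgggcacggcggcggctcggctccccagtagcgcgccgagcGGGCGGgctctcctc
Neither window of Hs6st2 held any of the 3 motifs, at 50% and 72% GC, and that of Glce held 3 GC boxes at 67.2% GC.

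**Figure D2:**
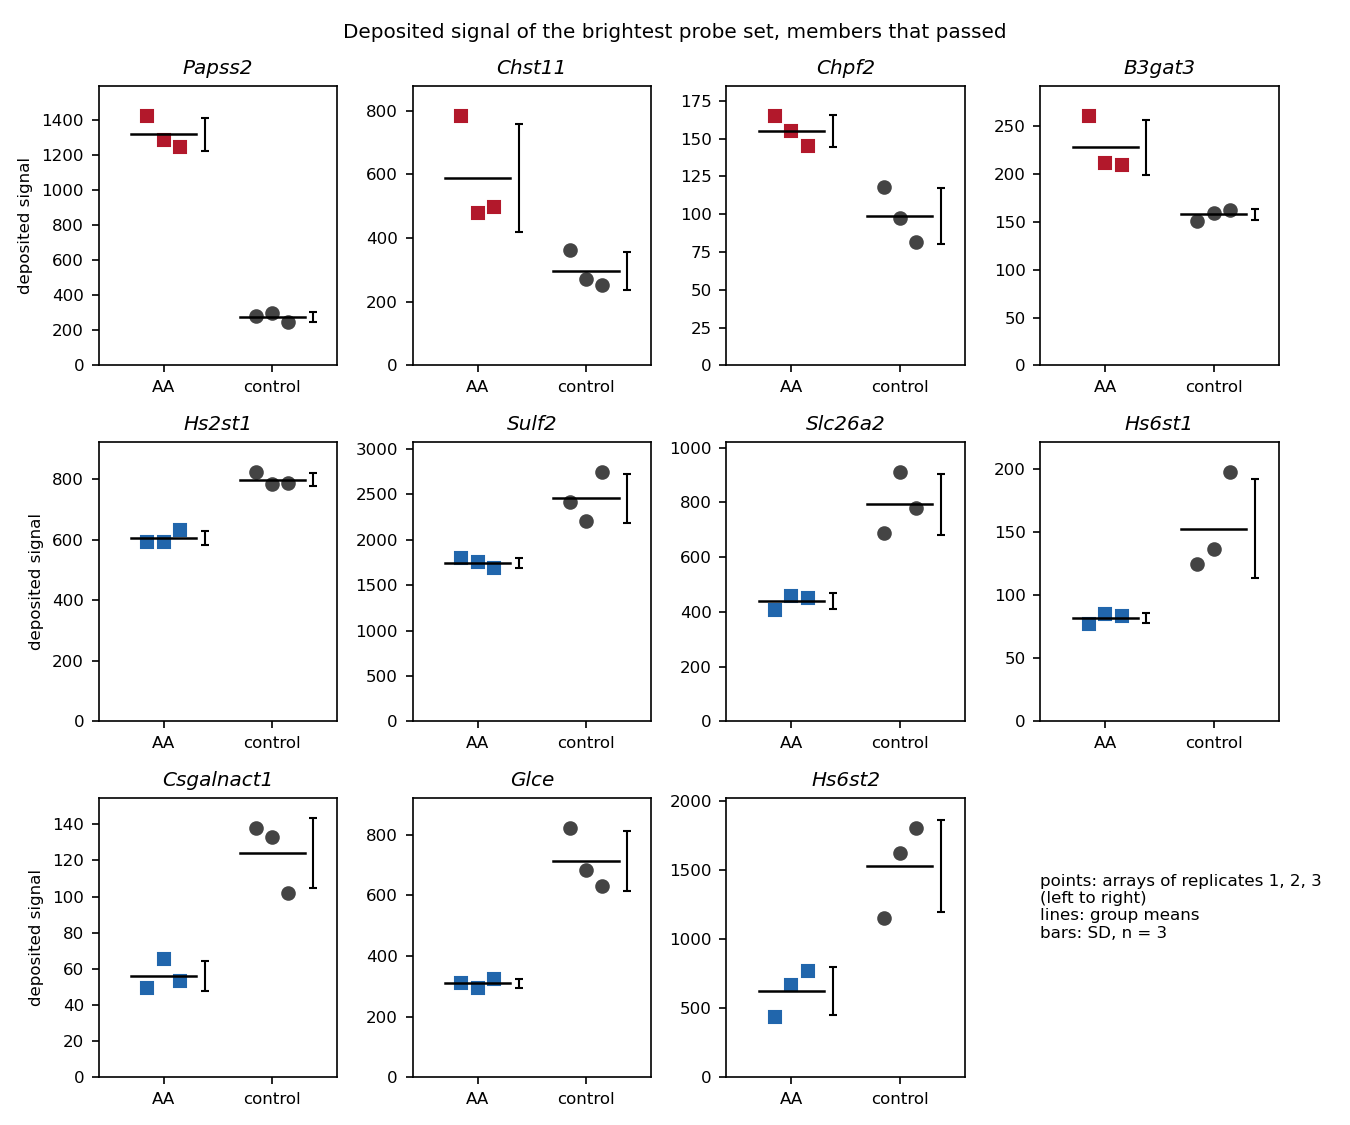
Deposited signals (linear scale, from 0) of the 11 members that passed, 1 panel per gene, with AA-treated cultures left of control cultures lines for the group means and bars of 1 SD to each side (n = 3). In no panel do the 3 AA points overlap the 3 control points; Papss2 shows the largest fold, 1246 to 1426 in AA-treated cells against 248 to 300 in control cells.

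The enzymes that polymerize heparan sulfate gave no call. Ext1 and Ext2, which form the polymerase, were at 0.25 (adjusted p = 0.184 by limma) and 0.01 on the log2 scale (adjusted p = 0.987). Ext1 had 549, 504 and 495 in AA-treated cells and 422, 464 and 451 in control cells, which did not overlap, and Ext2 had 401, 488 and 410 in AA-treated cells and 407, 473 and 445 in control cells. Extl3, which adds the first glucosamine of the chain, had -0.03 on the log2 scale (95% interval -0.26 to 0.21). The relatives Extl1 and Extl2 had 0.15 (adjusted p = 0.841 by limma) and -0.20 (adjusted p = 0.303). The changes of these 5 enzymes thus ran from -0.20 to 0.25.

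Linker enzymes held 1 call among the 4 measured. B3gat3 adds the glucuronic acid that completes the linker. It had 261, 212 and 210 in AA-treated cells, against 151, 159 and 163 in control cells, with no overlap and AA replicate 1 the highest. The means were 228 ± 28.9 and 158 ± 5.94 (SD, n = 3 each), for a log2 fold change of 0.55 ± 0.12 (95% interval 0.27 to 0.83; adjusted p = 0.042 by limma), and its other probe set gave -0.13 (adjusted p = 0.844). This call was close to the threshold: without replicate 1 or replicate 2 the adjusted p was 0.144 each, and with no replicate block and any 1 array left out it lay between 0.0549 and 0.108. B4galt7, the galactosyltransferase that acts on the xylose, had 104, 82.9 and 91.1 in AA-treated cells and 69.9, 54.7 and 64.1 in control cells, and a log2 fold change of 0.58 that did not pass (adjusted p = 0.0607 by limma). This brightest probe set of B4galt7 is of a type whose probes can bind other transcripts as well. Its other probe set gave -0.02 (adjusted p = 0.985), and the mean of its probe sets gave 0.28 (adjusted p = 0.401). B3galt6, which adds the next galactose, had -0.41 (adjusted p = 0.256) and Xylt2, a xylosyltransferase that starts the linker, 0.23 (adjusted p = 0.737).

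Chondroitin sulfate chain enzymes split, with 1 higher, 1 lower and 4 that did not pass. Csgalnact1 places the first N-acetylgalactosamine on the linker, the step that commits a chain to chondroitin sulfate. Its signals were 49.6, 65.6 and 53.2 in AA-treated cells, against 138, 133 and 102 in control cells, and the groups did not overlap. The means were 56.1 ± 8.40 and 124 ± 19.5 (SD, n = 3 each), for a log2 fold change of -1.13 ± 0.15 (95% interval -1.48 to -0.78; adjusted p = 0.00538 by limma), and the second probe set gave -1.43 (adjusted p = 0.19). With the mean of both probe sets the change was -1.28 and the adjusted p 0.0602. Csgalnact2, which catalyses the same step, was at 0.17 on the log2 scale (adjusted p = 0.538 by limma), with 642, 523 and 644 in AA-treated cells and 463, 593 and 589 in control cells.

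Chpf2, a chondroitin polymerizing factor of the synthase family, had 165, 155 and 145 in AA-treated cells, against 118, 97.4 and 81.5 in control cells. Replicate 1 was the highest and replicate 3 the lowest culture in both groups, and the groups did not overlap, with means of 155 ± 10.3 and 99.1 ± 18.5 (SD, n = 3 each). Its log2 fold change was 0.68 ± 0.12 (95% interval 0.40 to 0.96; adjusted p = 0.0177 by limma), and its other probe set gave 0.26 (adjusted p = 0.607). Without replicate 2 the adjusted p of Chpf2 was 0.121, and with no replicate block it lay between 0.0694 and 0.127 when any 1 array other than control replicate 1 was left out. Chsy1 and Chpf, other members of the synthase family, had 0.11 (adjusted p = 0.587 by limma) and 0.24 (adjusted p = 0.377). Chsy3 lay at or below the median signal, with at most 5.67 in AA-treated cells and 2.21 in control cells.

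Among the 8 enzymes that sulfate or epimerize chondroitin and dermatan sulfate, only Chst11 passed. Chst11 is a chondroitin 4-O-sulfotransferase needed for cartilage growth in mice. It had 784, 480 and 499 in AA-treated cells, against 364, 272 and 253 in control cells, with replicate 1 the highest culture in both groups and no overlap. The means were 588 ± 170 and 296 ± 59.3 (SD, n = 3 each), for a log2 fold change of 1.00 ± 0.09 (95% interval 0.79 to 1.21), with an adjusted p of 0.000982 by limma. Its second probe set gave 1.03 (adjusted p = 0.105). With no replicate block, the adjusted p of Chst11 by limma was 0.0213 with all arrays. It was 0.0912 without control replicate 2 and 0.0697 without control replicate 3.

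Chst12, a second chondroitin 4-O-sulfotransferase, stood just outside the threshold. It had 183, 192 and 212 in AA-treated cells, against 116, 107 and 181 in control cells, which did not overlap because control replicate 3 stayed just below the lowest AA culture. Its log2 fold change was 0.61 (adjusted p = 0.0535 by limma), and without replicate 3 it was 0.81 with an adjusted p of 0.00855. The 6-O-sulfotransferase Chst7 had 0.36 (adjusted p = 0.36 by limma), and Chst3, with the same activity, was at or below the median signal. Chst15, which adds a second sulfate to an already 4-O-sulfated sugar, had 0.20 (adjusted p = 0.387). For dermatan sulfate, the epimerase Dse had a 95% interval from -0.23 to 0.22, the 4-O-sulfotransferase Chst14 had -0.19 (adjusted p = 0.377) and the uronyl 2-O-sulfotransferase Ust had -0.07 (adjusted p = 0.86).

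The window of 250 bases before the only RefSeq start of Chst11, at chr10:82985247-82985496 on the plus strand (GRCm38.p6), is shown because this gene had the second largest rise among the members that passed.
Chst11: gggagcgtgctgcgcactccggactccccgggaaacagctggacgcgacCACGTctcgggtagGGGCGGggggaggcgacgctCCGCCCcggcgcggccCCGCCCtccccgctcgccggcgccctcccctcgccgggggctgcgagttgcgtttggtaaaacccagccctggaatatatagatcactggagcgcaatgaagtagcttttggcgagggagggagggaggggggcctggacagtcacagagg
It held 3 GC boxes and 1 ACGTG at 70% GC. Windows were found for 31 of the 41 members, 39 in all. A GC box stood in 56.4% of them, against 32.7% of all 32851 windows of this length, and the median GC content was 64% and 52.4%. The RUNX motif stood in 5.13% against 14%, and ACGTG in 20.5% against 16.6%. Counted by gene, with a match in any window, the GC box was found in 21 of the 31 members with a window. It was found in 2 of the 4 members that rose and in 4 of the 5 members that fell and had a window. The share by gene over all genes was not computed, so these counts by gene have no base rate. These motifs were chosen with earlier results known, and a match of letters is a description of the window, not a binding site.

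Hyaluronan synthases gave no call. Has2 was the only 1 of the 3 above the median signal, with 77.8, 91.1 and 123 in AA-treated cells and 50.5, 93.3 and 138 in control cells, which overlapped widely. Its log2 fold change was 0.16 (95% interval -0.25 to 0.57; adjusted p = 0.72 by limma). Has1 reached at most 9.13 in AA-treated cells and 21.0 in control cells, and Has3 at most 4.73 in AA-treated cells and 3.91 in control cells. Ugdh makes the glucuronic acid donor that all of these chains use. It had 1154, 1173 and 1105 in AA-treated cells and 1462, 1399 and 1276 in control cells, with no overlap, and its log2 fold change of -0.29 did not pass (adjusted p = 0.0671 by limma).

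**Figure D3:**
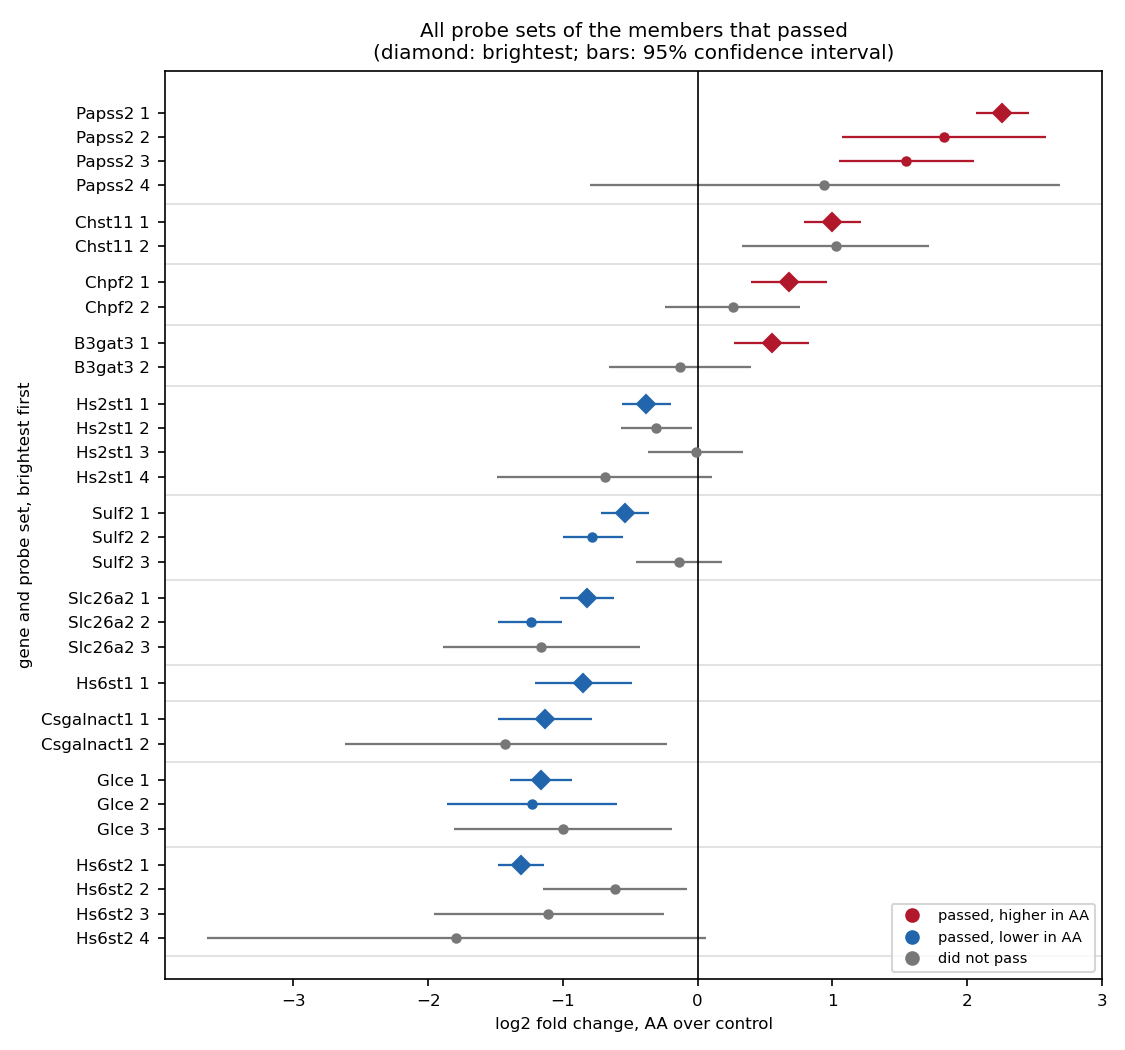
Log2 fold change, AA over control, of every probe set of the 11 members that passed, with 95% intervals; the brightest probe set of each gene is marked. The probe sets of Papss2, Glce, Slc26a2 and Hs6st2 all lie on the side of their brightest one, and B3gat3 has its second at -0.13.

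The 39 measured members were read by 73 probe sets, with 1 for each of 17 members and more for the other 22. Of the 34 that were not the brightest of their gene, 5 passed, belonging to Papss2 (2), Glce, Slc26a2 and Sulf2, each in the direction of the brightest one. A total of 12 of the 34 were at or below the median signal. Of all 73, 6 passed as higher and 10 as lower, where 2.71% and 2.5% of all probe sets did, or 5.2% in either direction. With all probe sets of a gene averaged, B3gat3 was at 0.21 (adjusted p = 0.45 by limma), Chpf2 at 0.47 (adjusted p = 0.132) and Hs2st1 at -0.35 (adjusted p = 0.157), none of which passed.

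For 5 pairs of related enzymes, chosen after their values were seen, the 2 changes were compared, with the range over same-numbered cultures given as a description, since the numbers were not shown to pair the cultures. Papss2 changed by 2.03 more than Papss1 on the log2 scale (1.68 to 2.22 over the replicate numbers), Chpf2 by 0.44 more than Chpf (0.10 to 0.87), and Csgalnact1 by -1.30 relative to Csgalnact2 (-1.93 to -0.85). For each of these 3 pairs, the two-sided exact permutation test gave p = 0.1 (0.167 adjusted over the 5 pairs), the smallest p that this unpaired test of 3 against 3 cultures can give. The exact permutation test gave p = 0.6 for Chst11 against Chst12, whose difference of 0.39 ran from -0.06 to 0.78. It gave an exact p of 0.3 for Hs6st2 against Hs6st1, whose difference of -0.46 ran from -0.75 to 0.02.

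Around these members stand proteoglycan core proteins, degrading enzymes, hyaluronan binders and the enzymes that make sugar nucleotides. Of 102 such genes, 96 were measured, 10 were higher, 6 were lower and 80 did not pass, where 4.07% of all genes passed as higher and 3.85% as lower. Above the median signal stood 59 of the 96, all 16 that passed among them, and there the shares over all genes were 6.68% and 6.32%. The smaller lists below are read against the same shares. Their median log2 fold change was 0.00. Among the 27 core proteins, 3 rose and 4 fell. Cspg4, a membrane chondroitin sulfate proteoglycan, had 930, 719 and 523 in AA-treated cells, against 390, 275 and 204 in control cells, a log2 fold change of 1.35 (adjusted p = 0.000258 by limma). Vcan, the matrix proteoglycan versican, had 0.81 (adjusted p = 0.00286) and Dcn, decorin, 0.47 (adjusted p = 0.0202), all 3 being cores that carry chondroitin or dermatan sulfate. The 4 cores that fell, Gpc4, Gpc6, Sdc2 and Sdc3, are glypicans and syndecans, which carry heparan sulfate at the cell surface. With all probe sets of a gene averaged, Vcan, Gpc6, Sdc2 and Sdc3 did not pass, with values given further below.

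Gpc4 had 1102, 1105 and 1148 in AA-treated cells, against 2009, 1919 and 2020 in control cells, a log2 fold change of -0.86 (adjusted p = 0.000637 by limma). Gpc6 fell by 0.63 on the log2 scale (adjusted p = 0.00483), Sdc2 by 0.42 (adjusted p = 0.0115) and Sdc3 by 0.36 (adjusted p = 0.0475). Without replicate 2 the adjusted p was 0.0558 for Sdc2, 0.193 for Sdc3 and 0.11 for Dcn, and without replicate 3 it was 0.134 for Sdc3. The other 20 cores did not pass, and they did not all follow the chain type: the glypican Gpc1 was at 0.28 (95% interval 0.09 to 0.48; adjusted p = 0.116 by limma) and Bgn, biglycan, a core of chondroitin or dermatan sulfate, at -0.27 (95% interval -0.43 to -0.11; adjusted p = 0.0694). These 2 were named after their values were seen, and the probe set of Bgn is of the type whose probes can bind other transcripts as well.

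Heparanase, Hpse, which cuts heparan sulfate chains, was among the breakdown genes that rose. It had 179, 93.6 and 67.0 in AA-treated cells, against 17.1, 22.3 and 13.5 in control cells, a log2 fold change of 2.57 ± 0.26, or 5.95-fold (adjusted p = 0.00152 by limma), and the AA cultures differed widely among themselves. With a pseudocount of 50 its log2 fold change was 1.22 (adjusted p = 0.029 by limma). Of the other 17 breakdown genes measured, the iduronate 2-sulfatase Ids was higher by 0.45 (adjusted p = 0.00885), and Arsb, which removes 4-O-sulfate from chondroitin and dermatan sulfate, was lower, at -0.60 (adjusted p = 0.00569). Cemip2, a hyaluronan-degrading protein of the cell surface, was lower as well, at -0.40 (adjusted p = 0.0196). Without replicate 2 the adjusted p was 0.0541 for Ids and 0.117 for Cemip2, and with no replicate block that of Ids was 0.0514.

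Of the 12 genes listed under hyaluronan binding, 2 rose. Hapln1, the link protein that joins hyaluronan to proteoglycans and is also on the chondrocyte list, had 214, 226 and 214 in AA-treated cells, against 23.3, 42.4 and 51.0 in control cells, a log2 fold change of 2.56, or 5.91-fold (adjusted p = 0.000658 by limma), and 1.61 with a pseudocount of 50. The other chondrocyte marker that rose was Col2a1, at 1.18 (adjusted p = 0.00352). Stab1, a scavenger receptor, rose by 1.36 (adjusted p = 0.0169), with 0.66 at a pseudocount of 50, and its adjusted p was 0.0859 without replicate 2. It rose beside 1 of 8 macrophage markers, Csf1r, and those markers summed to 497 to 561 in AA-treated cells and 435 to 537 in control cells, with the defining marker Adgre1 reaching at most 8.54 in AA-treated cells and 7.24 in control cells. Their part was not tested. In the remaining lists, Pxylp1, the phosphatase that removes phosphate from the linker xylose, rose by 0.95 (adjusted p = 0.00448), the epimerase Dsel by 0.52 (adjusted p = 0.0155) and Pgm3, of the route to N-acetylglucosamine donors, by 0.73 (adjusted p = 0.00385). The brightest probe set of Pxylp1 is of the type whose probes can bind other transcripts as well. The mean of its probe sets gave 0.87 (adjusted p = 0.00593 by limma). For Dsel the adjusted p was 0.0507 without replicate 1 and 0.0873 without replicate 2. None of the 9 keratan sulfate genes passed. With no replicate block and all arrays, the adjusted p of Cspg4 was 0.0159 by limma. In that fit it lay between 0.0634 and 0.0741 without control replicate 2, AA replicate 1 or AA replicate 2. That of Arsb lay between 0.0543 and 0.0721 without these or control replicate 3. That of Stab1 lay between 0.0565 and 0.0963 without any 1 array other than control replicate 1. The 6 genes Sdc2, Sdc3, Dcn, Ids, Cemip2 and Dsel also lost their calls in that fit without at least 1 array, with adjusted p of 0.0513 to 0.203, and under median centring, with 0.0656 to 0.146. With all probe sets of a gene averaged, Vcan was at 0.95 (adjusted p = 0.23 by limma), Gpc6 at -0.56 (adjusted p = 0.0772), Sdc2 at -0.21 (adjusted p = 0.168), Sdc3 at -0.13 (adjusted p = 0.62), Ids at 0.38 (adjusted p = 0.507), Arsb at -0.22 (adjusted p = 0.429) and Cemip2 at -0.30 (adjusted p = 0.116), and none of these passed.

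**Figure D4:**
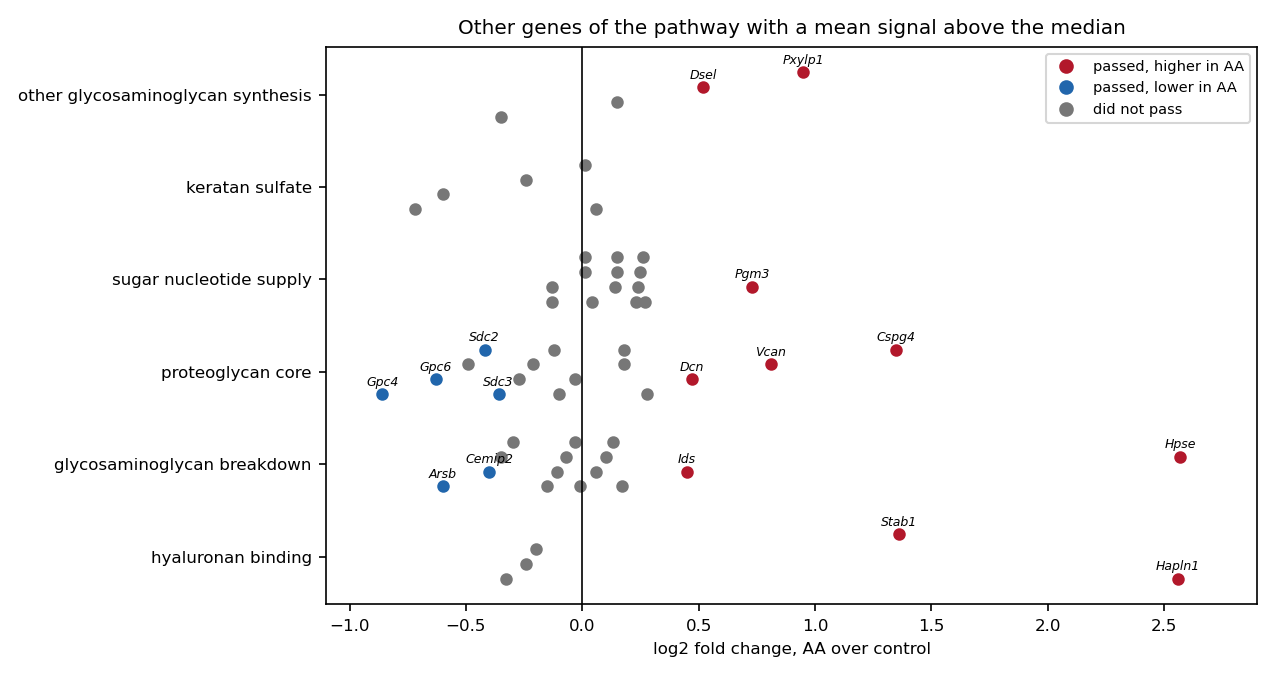
Log2 fold change, AA over control, of the other genes of the pathway with a mean signal above the median, by list, with the 16 that passed named. Hpse at 2.57 and Hapln1 at 2.56 lie farthest to the right, within their errors of each other, and Gpc4 at -0.86 farthest to the left of those that passed.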

How the data were processed

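Expression was measured on 6 Affymetrix Mouse Genome 430 2.0 arrays, 3 of AA-treated and 3 of control MC3T3-E1 cells. The values the authors deposited are linear intensity values, 1 per probe set and array, scaled to a trimmed mean of 150 (2% left off at each end). Per the submitters' processing notes this was done by MAS5, of unstated version; the quantile and GC-RMA steps of the study's methods are not in these values. Detection calls are not part of the table, so absence was not called.

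After removal of 64 control probe sets, 45037 remained. Their log2 signals were quantile-normalized and fitted with limma 3.58.1 (R 4.3.3), with condition and the replicate number as a block, since the methods name paired tests, and with variances that follow the signal (2 residual and 6.18 prior degrees of freedom). The Benjamini-Hochberg adjustment ran over all 45037, and 0.05 was the threshold. A gene's value is that of the brightest probe set that names no other gene (34945 probe sets name 1 gene, 932 several and 9160 none). Symbols were checked through the Entrez identifier, which changed 0. Promoter windows were RefSeq's for GRCm38.p6.

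All members are described, with full statistics for those with a probe set that passed; other pathway lists are given by up to 4 members per direction with the smallest p. Members and lists were chosen with earlier results of these data known. Alternatives were no replicate block, median centring, the signals as deposited, a pseudocount of 50, filters at the median or upper quartile of signal, no variance trend, the methods' t-test, averaging of all probe sets of a gene, and leaving out each replicate or array.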

Additional observations from a re-analysis of the deposited data

How the results depend on the processing

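The counts of 4 members higher and 7 lower in AA-treated cells, and of 10 and 6 other pathway genes, depended most on how the variance was estimated. Without a variance trend limma called 0 members in each direction (5 higher and 7 lower at an unadjusted p under 0.05) and 0 other pathway genes (10 and 8), and the methods' t-test with Benjamini-Hochberg also called 0 and 0 (4 and 7; 12 and 11). These 2 settings called 0 of all 45037 probe sets, so their zeros are not particular to the members. At the methods' thresholds, an unadjusted p under 0.01 and a fold of 1.5, that t-test called 2 members higher and 3 lower, and 2 and 3 other pathway genes. Of all 18193 genes it called 189 higher and 175 lower. With all probe sets of a gene averaged, 2 members were higher and 5 lower, and 10 other pathway genes were higher and 1 lower. Of all genes, 580 were then higher and 363 lower. With each replicate or array left out, members higher ranged over 1 to 5, members lower over 4 to 8, other pathway genes higher over 5 to 11 and lower over 2 to 7. The totals over all genes then ranged over 246 to 730 higher and 226 to 607 lower. Of 206 values of the 11 members that passed, 141 stayed on their side of the threshold, 65 lost it and 0 changed direction. Papss2, Glce and Slc26a2 lost it only without the trend and under the t-test with Benjamini-Hochberg. B3gat3, Hs2st1 and Sulf2 lost it under median centring, with adjusted p of 0.0654, 0.0531 and 0.0541, and B3gat3, Hs2st1 and Hs6st1 with a pseudocount of 50, with 0.0868, 0.0508 and 0.0623. Of the 28 members that did not pass, 3 passed under some alternative (B4galt7, Chst12 and Ugdh) and 11 changed sign under at least 1. Median centring gave 473 genes higher and 757 lower, against 740 and 700. The causes were not tested. The numbers were not shown to pair the cultures, since deviations of same-numbered samples correlated at 0.182, 0.0251 and 0.0921, and AA replicate 2 correlated best with control replicate 3 (0.0412); with no replicate block the counts were 4 members higher and 7 lower, and 9 other pathway genes higher and 6 lower.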
